A study of Mus musculus with 21 samples.

Results

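miR-132 and miR-212 are a pair of neighbouring microRNAs (miRNAs) whose transcription follows neuronal activity. They were followed in the mouse auditory system as 4 mature products, the 3p and 5p arms of each hairpin, which are 4 of the 1647 mature miRNAs in the deposited count table. The members were picked by name, with earlier results of these data known: mmu-miR-132-3p, mmu-miR-132-5p, mmu-miR-212-3p and mmu-miR-212-5p. Small RNA had been sequenced from 2 organs at embryonic day E16, on the day of birth (P0) and at P16, after the onset of hearing. The organs were the sensory epithelium (SE) of the cochlea, which holds the hair cells, and the superior olivary complex (SOC), a group of brainstem nuclei that compares input from both ears. All animals were untreated wild-type (WT) C57 mice. Cochlear tissue came from C57BL/6JOlaHsd mice and was pooled from several ears, with 2 E16, 4 P0 and 4 P16 libraries. SOC tissue came from C57Bl6/J mice and was pooled from several animals, with 4 E16, 4 P0 and 3 P16 libraries. P-values therefore measure the spread between pooled samples.

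Both miRNAs are cut from a shared primary transcript whose promoter is bound by CREB (cAMP response element-binding protein), a transcription factor that is phosphorylated after synaptic activity and neurotrophin signalling. In neurons, miR-132 is known to limit p250GAP, a GTPase-activating protein that restrains the outgrowth of dendrites and spines. Auditory neurons fire in spontaneous bursts before the ear canal opens, and sound-evoked activity reaches the SOC only after hearing onset, which lies between P0 and P16.

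The 4 mature sequences were matched in RefSeq (GRCm38.p6) and are printed 5′ to 3′ with the seed, bases 2 to 8, in capitals, because the seed decides which members can share target sites.
miR-132-3p: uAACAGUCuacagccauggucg
miR-212-3p: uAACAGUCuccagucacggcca
miR-132-5p: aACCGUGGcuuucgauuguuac
miR-212-5p: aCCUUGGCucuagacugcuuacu
The 3p arms carried the same seed, AACAGUC, and no other mature miRNA of the RefSeq table had it. A target site for either 3p arm would hold GACUGUU. The 3p arms were identical at 17 of 22 positions. Counted from the 5′ end, with the base of miR-132-3p first, they differed by A10C, C14U, U17C, U20C and G22A, all outside the seed. The 5p arms had different seeds, ACCGUGG in miR-132-5p and CCUUGGC in miR-212-5p, each shared with 0 other miRNAs of the table. Only identity of bases 2 to 8 was compared, not similarity after a shift of the sequences.

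The hairpins are shown with the arms that were counted in capitals, to place each product within its precursor.
Mir212: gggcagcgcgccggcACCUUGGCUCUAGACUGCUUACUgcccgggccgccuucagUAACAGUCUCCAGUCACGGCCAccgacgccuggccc
Mir132: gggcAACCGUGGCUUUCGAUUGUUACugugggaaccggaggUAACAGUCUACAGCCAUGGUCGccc
Mir212 lies at chr11:75173388-75173478 and Mir132 at chr11:75173682-75173747, both on the plus strand of GRCm38, with 203 bases between them. Both hairpins fell in an intron of 1700016P03Rik, a processed transcript on the same strand (chr11:75172560-75177633). The nearest gene to the left was Hic1, a transcriptional repressor, on the minus strand, whose nearer edge was 3869 bases from the cluster. The nearest gene to the right, Ovca2, also on the minus strand, had its nearer edge 2195 bases away.

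The libraries differed widely in depth, and the depth sets how firmly each organ can be described. Cochlear libraries held 124400 to 447419 counts and SOC libraries 8309669 to 18053698. At the median depth, 1 count was worth 5.08 CPM (counts scaled to a library of 1000000) in the cochlea and 0.0854 CPM in the SOC. Each organ was prepared with its own kits (Direct-zol and SMARTer for the cochlea, innuPrep and TruSeq for the SOC), so organ, kit and mouse strain cannot be told apart and levels are not compared between organs. The SOC libraries fell into 3 sets by composition, which no label names. Set A gave over 10% of its counts to miR-99b-5p (E16 replicates 2 and 3, P0 replicates 2 and 3). Set C gave less than 1% to miR-191-5p (P0 replicate 4, P16 replicates 2 and 3). Set B held the remaining 4 libraries (E16 replicates 1 and 4, P0 replicate 1, P16 replicate 1) and was the only set with all time points.

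The labelled tissues were checked against marker miRNAs. All 5 neuronal markers were present in the SOC, with a summed level of 38344 to 118480 CPM at E16, 53331 to 109450 at P0 and 26725 to 43511 at P16. By the criteria given with the members' calls, 1 of 5 was called higher and 1 lower between E16 and P16, against 21.2% and 20% of all tested miRNAs. The 3 hair cell markers were miR-96-5p, miR-182-5p and miR-183-5p. In the cochlea they summed to 52324 to 55846 CPM at E16, 33733 to 37995 at P0 and 16684 to 38389 at P16. There 0 of 3 of these markers were called between E16 and P16, against 29.6% of all tested miRNAs. In the SOC they were also high at E16, at 85032 to 164650 CPM, and fell to 521 to 3501 CPM at P16, with 3 of 3 called lower than at E16 by the criteria given with the members' calls, as 20% of all tested miRNAs were. The summed oligodendrocyte markers moved the other way in the SOC, from 389 to 493 CPM at E16 to 3600 to 9117 CPM at P16, with 3 of 3 measured markers called higher, as 21.2% of all tested miRNAs were. SOC epithelial markers went from 926 to 1963 CPM at E16 to 49.7 to 146 CPM at P16, with 3 of 4 tested called lower. SOC muscle markers went from 113 to 292 CPM to 9.01 to 24.2 CPM, with 1 of 2 tested called lower. SOC blood markers went from 60.4 to 86.6 CPM to 101 to 199 CPM, with 1 of 4 tested called higher and 1 lower. These calls stand against the same 21.2% and 20% of all tested miRNAs. Cochlear oligodendrocyte markers went from 43.4 to 65.4 CPM at E16 to 716 to 1354 CPM at P16 (2 of 2 tested called higher). Neuronal markers there went from 3006 to 3496 CPM to 1066 to 1540 CPM (3 of 5 called lower). Cochlear epithelial markers went from 14737 to 22575 CPM to 2498 to 7050 CPM (3 of 7 called lower). Blood markers there went from 1465 to 1638 CPM to 453 to 750 CPM (2 of 3 tested called lower). Cochlear muscle markers went from 474 to 549 CPM to 1097 to 4295 CPM (1 of 2 tested called higher). Between E16 and P16, 29.6% of all tested cochlear miRNAs were called in either direction. Mesenchymal markers were at 47371 to 50544 CPM at E16, 52710 to 77582 at P0 and 14554 to 27368 at P16 in the cochlea. There 1 of 3 tested was called higher and 1 lower between E16 and P16. In the SOC they were at 15772 to 24916 CPM at E16 and 18662 to 25372 CPM at P16, with 1 of 3 called lower. The part of all these cell types in the changes described next was not tested.

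miR-132-3p, the guide strand best known for control of dendrites and synapses, was the most abundant member and increased at each step in the SOC. Its level, in CPM normalized by trimmed mean of M-values (TMM), was 130, 177, 200.2 and 221 in E16 replicates 1 to 4. At P0 it was 356, 344, 422 and 875 in replicates 1 to 4, and at P16 it was 1833, 1701 and 1709.6 in replicates 1 to 3. No library of a later time point overlapped with an earlier one, and P0 replicate 4 stood between the other P0 libraries and P16. The group means were 182 ± 39.3 (SD, n = 4), 499 ± 253 (SD, n = 4) and 1748 ± 73.9 (SD, n = 3). Among all 1647 miRNAs it moved from ranks 113 to 152 at E16 to ranks 38 to 44 at P16. The change from E16 to P16 was 9.60-fold (log2 3.26, SE 0.423, edgeR FDR 0.000177). In bulk tissue, a change in the number of cells that hold an miRNA and a change in the level per cell cannot be told apart.

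miR-132-5p, the opposite arm of the same hairpin, was the least abundant member and had the smallest fold change from E16 to P16. Its level was 2.58, 4.78, 3.20 and 2.00 CPM in E16 replicates 1 to 4. At P0 it was 6.96, 6.02, 9.87 and 10.9 CPM, and at P16 it was 14.0, 18.4 and 18.7 CPM. The time points did not overlap, although these levels rested on few reads, 23 to 62 per E16 library and 149 to 195 per P16 library. The means were 3.14 ± 1.20 CPM (SD, n = 4), 8.45 ± 2.33 (SD, n = 4) and 17.0 ± 2.62 (SD, n = 3). From E16 to P16 it rose 5.41-fold (log2 2.44, SE 0.415, edgeR FDR 0.000884).

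miR-212-3p, which shares the seed of miR-132-3p, followed the same course at a lower level. It was at 14.1, 11.03, 10.4 and 19.5 CPM in E16 replicates 1 to 4. At P0 its level was 28.1, 20.5, 26.5 and 37.6 CPM, and at P16 it was 147, 112 and 97.2 CPM. The E16 and P0 groups nearly touched, at 19.5 and 20.5 CPM, while P16 was far above both. The means were 13.8 ± 4.18 CPM (SD, n = 4), 28.2 ± 7.08 (SD, n = 4) and 119 ± 25.6 (SD, n = 3). The change from E16 to P16 was 8.60-fold (log2 3.11, SE 0.388, edgeR FDR 0.000164).

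miR-212-5p has a seed of its own and had the largest fold change of the members from E16 to P16 over all SOC libraries, though not from P0 to P16 or within set B. Its level was 14.2, 19.7, 16.8 and 13.8 CPM in E16 replicates 1 to 4. At P0 it was 30.4, 49.1, 56.6 and 78.0 CPM, and at P16 it was 118, 194 and 192 CPM. Again no library of one time point fell within the range of another. The means were 16.1 ± 2.72 CPM (SD, n = 4), 53.5 ± 19.7 (SD, n = 4) and 168 ± 43.4 (SD, n = 3). From E16 to P16 it rose 10.4-fold (log2 3.38, SE 0.410, edgeR FDR 0.000131).

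**Figure D1:**
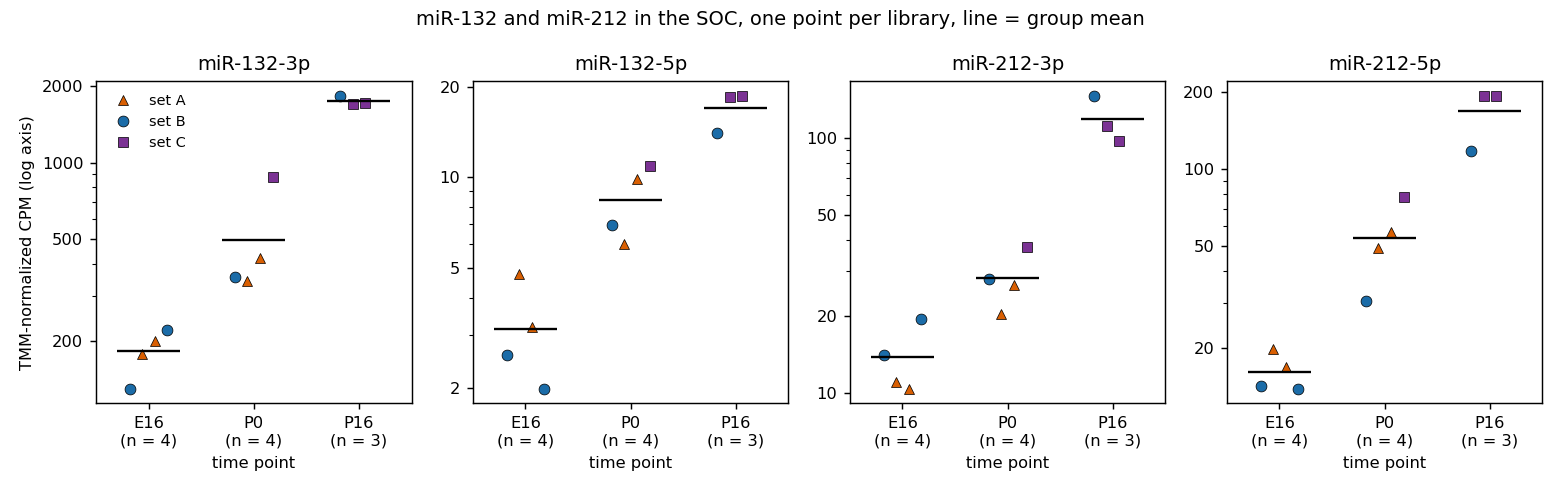
TMM-normalized CPM (log axis) of the 4 members in each SOC library at E16 (n = 4), P0 (n = 4) and P16 (n = 3). Points are libraries, shaped and coloured by library set, and lines are group means. The P16 libraries lie above all earlier ones in every panel, from 1701 to 1833 CPM for miR-132-3p.

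A member was called differentially expressed (DE) when its edgeR FDR was under 0.05, its fold change over 1.5 and the replicates of the compared time points did not overlap. Between E16 and P16 all 4 members were called higher in the SOC, where 21.2% of the 694 tested miRNAs were called in this direction. Replicates without overlap in the higher direction, as seen for all 4, were found in 26.5% of tested miRNAs. They stood at ranks 36, 43, 47 and 89 of the 694 when ordered by fold change. Their median log2 change was 3.18, against 0.08 for all tested miRNAs.

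From birth to P16, the interval that contains hearing onset, 3 of 4 members were called higher, against 8.07% of all tested miRNAs, and all 4 had higher P16 replicates without overlap, against 15.3%. The log2 changes of the called members were 1.81 (SE 0.407, edgeR FDR 0.0115) for miR-132-3p, 2.07 (SE 0.377, FDR 0.00493) for miR-212-3p and 1.65 (SE 0.391, FDR 0.0137) for miR-212-5p. miR-132-5p did not pass, at 1.01 (SE 0.403, edgeR FDR 0.0931). It passed without P0 replicate 4 (1.16, FDR 0.0469) and without P16 replicate 1 (1.26, FDR 0.0454), and in 6 of 26 alternative analyses in all. The median over the 4 was 1.73, against −0.15 for all tested miRNAs.

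Before birth, from E16 to P0, 3 of 4 members were also called higher, where 2.45% of all tested miRNAs were, and all 4 had higher P0 replicates without overlap, against 6.34%. miR-132-3p changed by log2 1.46 (SE 0.383, edgeR FDR 0.0443), miR-132-5p by 1.42 (SE 0.387, FDR 0.0458) and miR-212-5p by 1.73 (SE 0.373, FDR 0.0168). The fourth, miR-212-3p, was at 1.03 (SE 0.351, edgeR FDR 0.102) and not called. These calls stood close to the threshold. miR-132-3p lost its call when any 1 of 8 libraries was left out (E16 replicates 1 to 4, P0 replicates 3 and 4, P16 replicates 2 and 3), with log2 changes of 1.10 to 1.54 and FDR of 0.0562 to 0.141. miR-132-5p lost it without any 1 of 9 (those 8 and P0 replicate 2), with 1.24 to 1.69 and FDR of 0.0506 to 0.147. miR-212-5p lost it without E16 replicate 1 (1.60, FDR 0.0665) or E16 replicate 3 (1.74, FDR 0.0562). With the replicate number as a block, which treats libraries of the same number as pairs, miR-132-5p was at 1.45 with an FDR of 0.0569.

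The same steps were then read within the library sets, since set A held no P16 library and set C no E16 library. For miR-132-3p, P0 was 2.03-fold above E16 within set A and 2.03-fold within set B. P16 was 5.15-fold above P0 within set B and 1.95-fold within set C. The P16 to P0 ratio was 5.22 in set B and 2.78 in set C for miR-212-3p, 3.88 and 2.48 for miR-212-5p, and 2.01 and 1.70 for miR-132-5p. These ratios rest on 1 P0 and 1 P16 library in set B and on 1 P0 library in set C, and the difference between the sets was not tested. In set B alone the P16 level was above the E16 mean 10.5-fold for miR-132-3p, 6.12-fold for miR-132-5p, 8.73-fold for miR-212-3p and 8.43-fold for miR-212-5p. In every set and for every member the later time point was the higher. With the set as a covariate in edgeR, all 4 members were called higher in each of the 3 comparisons. The E16 to P0 changes were then 1.22 (FDR 0.00372) for miR-132-3p, 1.29 (FDR 0.00464) for miR-132-5p, 1.09 (FDR 0.0035) for miR-212-3p and 1.44 (FDR 0.000139) for miR-212-5p.

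**Figure D2:**
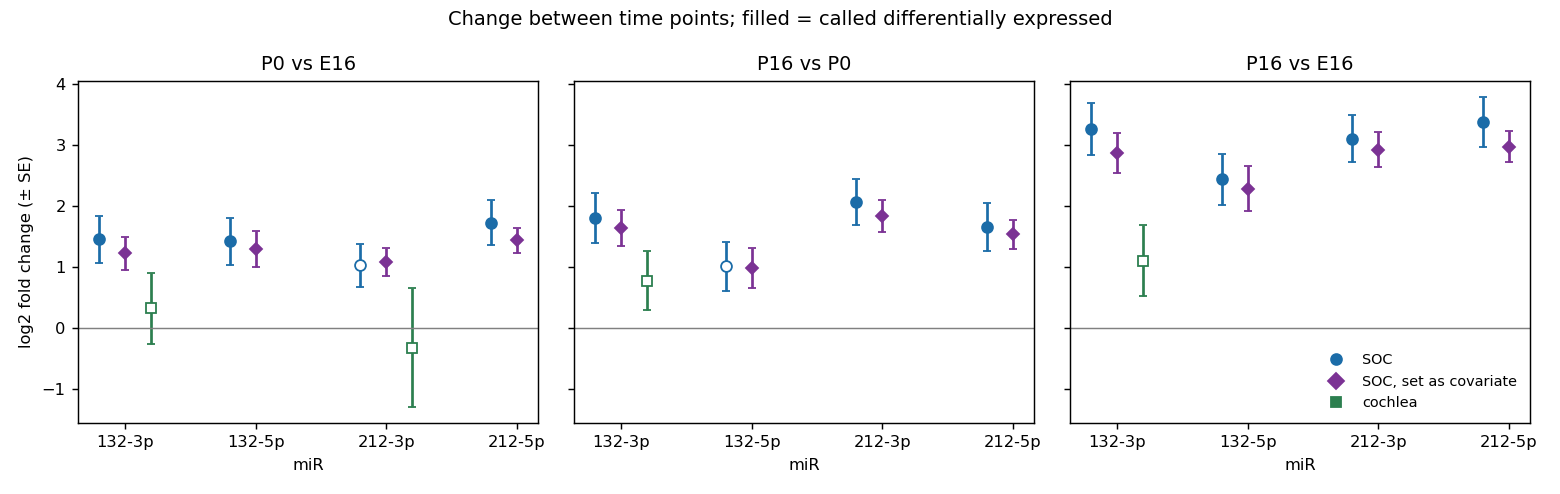
Log2 fold change (± SE, edgeR) of the members between time points in the SOC, in the SOC with library set as a covariate, and in the cochlea. Filled symbols were called DE, and cochlear changes are drawn only where neither group was at 3 counts or fewer in every library. The SOC changes from E16 to P16 run from 2.44 to 3.38, and no cochlear symbol is filled.

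Since all 4 products come from one transcript, their proportions within a library were compared next. miR-132-3p made up 84.3% ± 2.81 (SD, n = 4) of the counts of the 4 members at E16, 83.9% ± 2.56 (SD, n = 4) at P0 and 85.2% ± 1.45 (SD, n = 3) at P16. This share stayed within a few percentage points while the sum of the 4 members went from 215 ± 40.6 CPM (SD, n = 4) at E16 to 2052 ± 52.4 CPM (SD, n = 3) at P16. The other members contributed 5.11% to 6.53% (miR-212-3p), 7.69% to 9.42% (miR-212-5p) and 0.833% to 1.52% (miR-132-5p) as group means.

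The ratio of the seed-sharing 3p arms, miR-132-3p to miR-212-3p, had geometric means of 13.3 in E16, 16.7 in P0 and 14.9 in P16 libraries. Its largest difference between time points was 0.33 on the log2 scale (SE 0.302, P0 minus E16, exact permutation p = 0.371). By library set, the ratio was 9.15 to 12.6 in set B, below the 15.9 to 19.2 of set A and the 15.2 to 23.3 of set C. Sets A and C overlapped, and differences between the sets were not tested. For the arms of the miR-212 hairpin, set B again lay apart from sets A and C. The ratio of miR-212-3p to miR-212-5p was 0.926 to 1.41 in set B, 0.418 to 0.620 in set A and 0.482 to 0.576 in set C, so miR-212-5p was the more abundant arm in every library of sets A and C and in 2 of 4 libraries of set B.

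The arms of the miR-132 hairpin, and the 5p arms of both hairpins, gave the largest differences between time points. The count of miR-132-3p divided by that of miR-132-5p was 36.8 to 108 in the E16 libraries, 42.6 to 79.6 in the P0 libraries and 91.4 to 130 in the P16 libraries. The P16 and P0 libraries did not overlap (difference 0.88 on the log2 scale, SE 0.254, exact two-sided permutation p = 0.0571, 0.229 after Benjamini-Hochberg adjustment over 12 ratio tests). In log2 units the ratio was 5.67 in the 1 P0 library and 7.03 in the 1 P16 library of set B. In set C it was 6.31 in the 1 P0 library and 6.52 as the mean of 2 P16 libraries. The ratio of miR-132-5p to miR-212-5p was 0.147 to 0.245 in the E16 libraries and 0.0954 to 0.119 in the P16 libraries. That difference was −0.87 on the log2 scale (SE 0.182, exact permutation p = 0.0286, adjusted 0.229), without overlap. With 4 against 3 libraries, 0.0286 was the smallest p that could be reached. Of the 12 ratio tests 1 was under 0.05 before adjustment and none after it. A p of 0.0286 could pass this adjustment only if most of the 12 tests reached it, so the adjusted values do not show stable ratios.

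**Figure D3:**
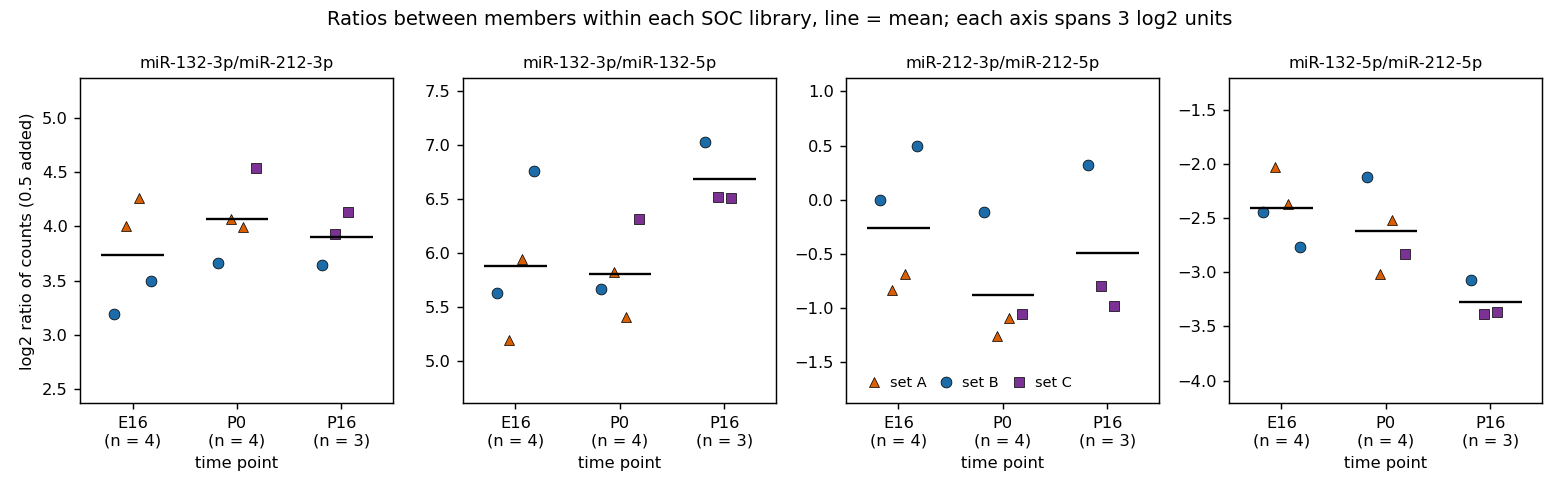
Log2 ratio of counts (0.5 added) between pairs of members in each SOC library at E16 (n = 4), P0 (n = 4) and P16 (n = 3). Points are libraries, marked by library set, lines are means, and each axis spans 3 log2 units. In the panel of miR-212-3p to miR-212-5p the set B points lie above the others at each time point, and in the panel of miR-132-3p to miR-132-5p the P16 points lie above all P0 points.

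The members were also set against miRNAs that are abundant in neurons. Per 1000 counts of the 5 summed neuronal markers, miR-132-3p had 1.69 to 5.77 counts at E16, 3.14 to 16.4 at P0 and 42.1 to 63.7 at P16. The P16 libraries were above all E16 libraries for each member. The log2 differences between P16 and E16 were 4.36 for miR-132-3p (SE 0.432), 3.56 for miR-132-5p (SE 0.438), 4.20 for miR-212-3p (SE 0.546) and 4.43 for miR-212-5p (SE 0.531). Each had an exact two-sided permutation p of 0.0286, the smallest that could be reached, and an adjusted value of 0.0571 over 12 tests. None passed, which with so few libraries does not show an absence of change. The result depended on the reference. By group means the largest part of the sum was miR-9-5p, a neuronal progenitor miRNA, at 68975 CPM at E16 and 17044 CPM at P16. The means of miR-124-3p were 2141 and 12831 CPM. miR-9-5p changed by log2 −2.02 from E16 to P16 (SE 0.707, edgeR FDR 0.036, not called because libraries overlapped). miR-124-3p, which marks differentiated neurons, rose by 2.58 (SE 0.716, FDR 0.0129). Relative to miR-124-3p alone, the differences were 0.93 for miR-132-3p, 0.13 for miR-132-5p, 0.77 for miR-212-3p and 1.00 for miR-212-5p, with adjusted exact permutation p of 0.343 to 0.997.

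Other miRNAs linked to synaptic plasticity were called in both directions in the SOC. Of 18 listed miRNAs, 17 were tested. Between E16 and P16, 3 were called higher (21.2% of all tested miRNAs), 3 lower (20% of all) and 11 were not called, with a median log2 change of 0.28. These counts became 3 higher and 1 lower without P16 replicate 2, 4 and 1 without P16 replicate 3, 4 and 6 without P16 replicate 1, 2 and 0 without set A, and 6 and 1 in set B alone or without set C. The 3 higher were miR-34a-5p (4.29), a p53-responsive miRNA, miR-138-5p (3.36), which acts on spine size, and miR-124-3p (2.58). The 3 lower were miR-381-3p (−3.60), from the imprinted cluster that also encodes miR-134, miR-92a-3p (−1.956), a member of the growth-related miR-17~92 cluster, and miR-137-3p (−1.92), which acts on synaptic vesicle release. From P0 to P16, 2 were called higher (miR-34a-5p and miR-138-5p, the latter at 1.87) and 1 lower (miR-137-3p at −2.40), each direction holding 8.07% of all tested miRNAs. From E16 to P0 edgeR called 0 of the 17, with 6 under an unadjusted p of 0.05, limma called 0 as well, and DESeq2 called 1 higher and 1 lower. In the cochlea, where miR-132-3p was not called, 6 of the 17 were called higher and 8 lower between E16 and P16, or 14 of 17 against 29.6% of all tested miRNAs, with a median log2 change of −1.09. The counts were 3 and 9 with library totals, 5 and 5 with limma, and 4 and 3 with all 21 libraries in one fit. With at least 10 counts in every library, 9 of the list were tested, with 2 called higher and 5 lower. Under that filter 60.1% of all 173 tested miRNAs were called. The part of abundance in the distance of the list from 29.6% was not tested.

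Similarity of pattern was described by Pearson's r of log2 CPM over the 11 SOC libraries. The 213 candidates averaged 100 CPM or more at some time point, and members had to meet the same limit. miR-132-5p, with its highest mean of 17.0 CPM at P16, fell short of it and was not ranked. The libraries share the time course and the library sets, so many miRNAs that differ with age score high. miR-150-5p, known from lymphocytes, was most like miR-132-3p (r = 0.978, 11 libraries), with means of 73.5, 173 and 714 CPM at E16, P0 and P16. Next came miR-326-3p (0.964), miR-212-3p (0.964), miR-212-5p (0.963) and miR-1981-5p (0.960). For miR-212-3p the leading miRNAs were miR-150-5p (0.970), miR-132-3p (0.964), miR-666-3p (0.962), miR-3065-3p (0.961) and the oligodendrocyte miRNA miR-338-5p (0.960). Its hairpin partner miR-212-5p came 17th, at 0.907. Over the 10 cochlear libraries miR-132-3p was closest to miR-6412 (0.855), miR-184-3p (0.853) and miR-338-3p (0.824), among 297 miRNAs.

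In the cochlea only miR-132-3p was measured in every library. It had 19 and 53 counts in E16 replicates 1 and 2, 14, 20, 9 and 24 in P0 replicates 1 to 4 and 41, 19, 19 and 19 in P16 replicates 1 to 4. As TMM-normalized CPM the levels were 51.7 and 92.0 at E16, 74.9, 97.4, 57.8 and 133 at P0 and 209, 148, 126 and 141 at P16. E16 and P0 overlapped, P0 and P16 overlapped at 133 and 126 CPM, and P16 lay above both E16 libraries. The means were 71.9 ± 28.5 (SD, n = 2), 90.7 ± 32.5 (SD, n = 4) and 156 ± 36.5 (SD, n = 4).

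No member was called in the cochlea by edgeR in any comparison, and no unadjusted p was under 0.05. Of the 896 tested miRNAs, 29.6% were called between E16 and P16, 24.4% between E16 and P0 and 10.5% between P0 and P16. Among the 173 with at least 10 counts in every library, a limit that no member met, these shares were 60.1%, 53.8% and 31.2%. For miR-132-3p the log2 change from E16 to P16 was 1.11 (SE 0.585, edgeR FDR 0.129). The replicates of these 2 time points did not overlap, as was true in the higher direction for 14.5% of all tested miRNAs. DESeq2 (1.20, FDR 0.0445) and limma on quantile-normalized values (1.47, FDR 0.0182) did call it, and the other 17 of 19 alternatives did not. The change was 0.63 (FDR 0.425) with library totals and 0.73 (FDR 0.518) without E16 replicate 1. The change from E16 to P0 was 0.33 (SE 0.577, edgeR FDR 0.717), turned to −0.12 when library totals replaced the TMM factors, and was 0.78 (SE 0.482, edgeR FDR 0.281) from P0 to P16.

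miR-212-3p was at low counts throughout the cochlear libraries. It had 10 and 13 counts at E16, 4, 9, 0 and 2 at P0 and 0, 1, 2 and 0 at P16. All P16 libraries were at or under the floor of 3 counts, which corresponds to 20.2 CPM on average there. The E16 mean was 1.23-fold that floor, and the fitted change was not called (edgeR FDR 0.130). E16 replicate 2, at 22.6 CPM, was under the floor of P16 replicate 2, at 23.3 CPM, so a decrease was not established. From E16 to P0 the log2 change was −0.32 (SE 0.974, edgeR FDR 0.850).

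miR-212-5p had 0 to 2 counts in each cochlear library and miR-132-5p had 0 or 1, so no change was detectable at this depth. miR-132-5p did not pass the filter on low counts in the cochlea, and 3 of 4 members were tested there, against 4 of 4 in the SOC. Scaled to the median cochlear depth, the SOC libraries at P16 would give 3.42 counts of miR-132-5p, 23.0 of miR-212-3p, 34.1 of miR-212-5p and 344 of miR-132-3p on average.

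**Figure D4:**
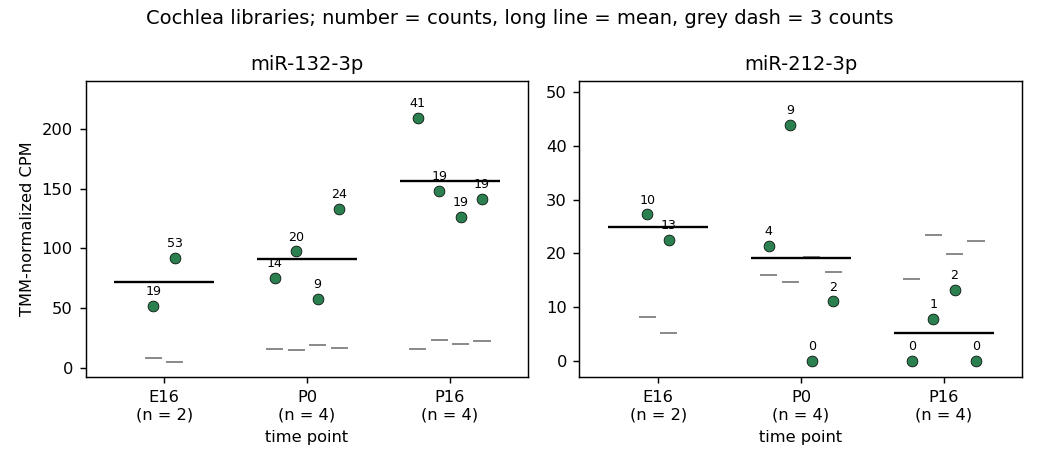
TMM-normalized CPM of miR-132-3p and miR-212-3p in each cochlear library at E16 (n = 2), P0 (n = 4) and P16 (n = 4). Each point carries its raw count, long lines are means and grey dashes mark the level of 3 counts in that library. miR-132-3p lies above the dash in all 10 libraries, whereas the 4 P16 points of miR-212-3p, with 0 to 2 counts, lie below it.

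The change with age was compared between the organs in an edgeR model of all 21 libraries, over the 545 miRNAs tested in both. From E16 to P16 miR-132-3p changed more in the SOC, by a difference of 2.01 on the log2 scale (95% confidence interval 0.73 to 3.29, FDR 0.0276), where 16.9% of miRNAs showed an organ difference. The call was lost without SOC P16 replicate 2 (1.95, FDR 0.0627) or 3 (1.92, FDR 0.0659), without cochlear E16 replicate 2 (1.60, FDR 0.169) and without cochlear P16 replicate 3 (1.89, FDR 0.0536). It was also lost when the SOC counts were thinned to the cochlear depth (1.44, FDR 0.182). The differences from E16 to P0 (1.03, 95% interval −0.23 to 2.29, edgeR FDR 0.239, with 11.9% of miRNAs called) and from P0 to P16 (0.98, −0.21 to 2.16, FDR 0.301) were not called.

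Between E16 and P16, miR-212-3p was 8.60-fold higher in the SOC. In the cochlea no change was called, and its E16 mean was 1.23-fold the mean P16 floor. The fitted organ difference was called (FDR 0.00233), and so was that from P0 to P16 (FDR 0.0238), where 6.42% of miRNAs were. Their sizes depend on the value that the fit assigns to cochlear P16 libraries of 0 to 2 counts. The P0 to P16 call was lost without cochlear P0 replicate 2 (3.16, FDR 0.105) or cochlear P16 replicate 1 (3.53, FDR 0.0634). As stated above for levels, organ, kit and strain cannot be told apart in these differences.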

How the data were processed

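The authors deposited raw counts of reads per mature miRNA for 21 libraries, without normalization. Per the paper's methods, reads were aligned with Bowtie to mouse miRNAs of MirGeneDB. The submitters' processing notes name Bowtie2 2.2.5, DESeq2 and mm10. The table uses miRBase names, and how reads of near-identical miRNAs were assigned is not given in the sources used here.

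From these counts, CPM and TMM factors were computed per organ. Changes were tested with edgeR 4.0.16 (quasi-likelihood F test, R 4.3.3) over miRNAs that exceeded 1 CPM in 2 or more libraries of any group, with Benjamini-Hochberg adjustment over all of them. The SE was taken as log2 fold change over the root of F. Groups with 3 counts or fewer in every library were treated as at the floor. Ratios within libraries (0.5 counts added) were tested by exact two-sided permutation. Intervals and floors cover counting or replicate error only, since PCR copies cannot be told from molecules. Scripts were tested on simulated data.

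The 4 members were named throughout, and other miRNAs were named from the plasticity and marker lists where called at P16 vs E16 in the SOC or where a count was 5 or fewer, and as the 5 (cochlea, the first 3) most similar in pattern. Members, lists and alternatives were chosen with earlier results of these data known. Sequences and positions came from RefSeq and GENCODE on GRCm38. Deviations from the group means were correlated to see whether replicate numbers pair the libraries. Between SOC E16 and SOC P0 all 4 same-number pairs had r of 0.252 to 0.490, whereas 2 of 12 other pairs exceeded 0.1. Those 2, at 0.410 and 0.259, joined set A libraries. Same-number pairs 2 and 3 also joined set A libraries, and pair 1 joined set B libraries. Replicate number and library set are therefore not separate in pairs 1 to 3. Pair 4 joined a set B library at E16 and a set C library at P0, with r of 0.254. E16 replicate 4 and P0 replicate 1, both of set B but of different number, had r of −0.00705. The labels name no pairing, and in no other comparison did every pair exceed 0.1. Alternatives were DESeq2 1.42.0, limma 3.58.1, RLE size factors, library totals, other filters and call rules, all libraries in one fit, the replicate block, the library set as covariate, SOC subsets, thinned SOC counts and leaving out each library. Figures used matplotlib 3.10.9.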

Additional observations from a re-analysis of the deposited data

Results flagged for a closer look

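Among 27 sets of 4 libraries' values, 1 library stood apart by Dixon's test at the 5% level, where chance gives about 1 in 20. It was miR-132-3p in SOC P0 replicate 4, at 875 CPM against 344 to 422 CPM in the other P0 libraries. This library was the only P0 library of set C. Without it the change from E16 to P0 was 1.10 and that from P0 to P16 was 2.22 on the log2 scale.

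The change with age differed between the organs, by edgeR's organ by time terms, in 3 cases. For miR-132-3p the SOC change from E16 to P16 exceeded the cochlear change by 2.01 on the log2 scale (FDR 0.0276). For miR-212-3p the fitted differences were 5.27 from E16 to P16 (FDR 0.00233) and 4.02 from P0 to P16 (FDR 0.0238), and both rest on cochlear P16 libraries of 0 to 2 counts. Organ, kit and mouse strain cannot be told apart in any of the 3.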

How the results depend on the processing

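In the SOC, the rise from E16 to P16 was called in 26 of 26 alternatives for miR-132-3p, miR-212-3p and miR-212-5p and in 25 of 26 for miR-132-5p, which was at 1.45 (log2) in counts thinned to the cochlear depth. No member changed direction while called. The E16 to P0 calls were less stable, being kept in 13 (miR-132-3p), 11 (miR-132-5p) and 20 (miR-212-5p) of 26. The values of miR-132-3p, miR-132-5p and, where lost, miR-212-5p were 1.38 and 1.402 without a filter, 1.497, 1.495 and 1.71 with all 21 libraries in one fit, 1.76, 1.92 and 1.90 without set A, 1.04, 0.36 and 2.03 in thinned counts, and 1.13, 1.70 and 1.22 in set B alone. With the replicate block miR-132-5p was at 1.45, and the block changed no other call. Leaving out 1 library gave 1.10 to 1.62 for miR-132-3p, 1.24 to 1.69 for miR-132-5p and 1.55 to 1.95 for miR-212-5p. miR-212-3p was called with DESeq2 (1.03) and with the set as covariate (1.09).

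From P0 to P16, calls were lost without set A for miR-132-3p (1.52), miR-212-3p (1.87) and miR-212-5p (1.63), in set B alone for miR-212-3p (2.44) and miR-212-5p (2.01) and in thinned counts for miR-212-5p (1.74). miR-132-5p was called with DESeq2 (1.02), limma (1.20), a filter of 10 counts (1.17) and the set as covariate (0.99), and ranged from 0.88 to 1.26 with 1 library left out. The cause of these shifts was not tested, beyond the fewer libraries or counts that some alternatives hold.

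In the cochlea, miR-132-3p was called from E16 to P16 with DESeq2 (1.20) and limma (1.47). A filter of 10 counts in every library left no member there. For the organ difference from E16 to P16, miR-132-3p was at 2.34 without a filter and 1.44 in thinned counts, both not called, and ranged from 1.60 to 2.45 with 1 library left out. That of miR-212-3p from P0 to P16 was at 4.09 without a filter, not called, and ranged from 3.16 to 5.12.

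The number of miRNAs called in the SOC ranged from 0 to 97 around 46 for P0 vs E16, from 104 to 366 around 286 for P16 vs E16 and from 15 to 248 around 112 for P16 vs P0, lowest in each without set A. In the cochlea it ranged from 93 to 255 around 219, from 104 to 293 around 265 and from 54 to 135 around 94, lowest with at least 10 counts in every library. Library totals in place of TMM factors moved the median change of all cochlear miRNAs to −0.38, −0.58 and 0 and that of SOC miRNAs to 0.30, 0.12 and −0.21. Set B alone and the removal of set C were chosen after seeing the data, and in set B, as where 1 cochlear E16 library was left out, a group of 1 library is assumed to vary like the others. Depth limits the cochlear 5p arms and miR-212-3p.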
